A study of Mus musculus with 4 samples.

Results

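The complement genes described here are C1qa, C1qb, C1qc, C3, C4b, Cfb and Serping1, 7 of the 48897 genes listed in a read-count table of mouse retina, chosen by their symbols. The libraries were made from wild-type C57BL/6 mice whose left eyes received 0.6 nmol of a miR-124-3p antagomir in 1 μl by intravitreal injection on postnatal day 3, while the right eyes received a scrambled oligonucleotide. An antagomir is a chemically modified antisense oligonucleotide that binds a mature microRNA. Retinas were taken on postnatal day 9, 6 days after injection, giving 2 anti-miR-124 and 2 scrambled-control (NC) libraries, each from mixed retinas of several mice. No uninjected eye was analysed here, so both groups share the injection. Each left-eye library shares a column number with 1 right-eye library, and the resulting pairs are named A and B for convenience, without saying which of the labelled replicates a library is. The study's methods refer to 1 biological replicate in 1 place and to 2 in another, and state that each group drew on at least 2 litters. Whether the pooled retinas of the libraries came from separate animals was not stated for each library. The p-values therefore measure only the spread between these 4 libraries, part of which may be technical.

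Complement is a cascade of plasma and tissue proteins that tags material for removal by phagocytes. C1q, built from A, B and C chains, recognises the target and starts the classical pathway, in which C4 and C2 are cleaved and C3 is then cleaved and deposited. The alternative pathway amplifies that deposition with factor B, and the C1 inhibitor encoded by Serping1 blocks the C1 proteases. In the brain and retina microglia are the main source of C1q, and C1q and C3 take part in synapse removal during development.

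All 7 genes lie on the minus strand, and the positions of the deposited table match the mouse build GRCm38. The C1q genes sit side by side on chromosome 4, with C1qb at chr4:136880145-136886177, C1qc at chr4:136889802-136892932 and C1qa at chr4:136895916-136898844, a stretch of 18.7 kb. C3 is at chr17:57203967-57228136 and Serping1 at chr2:84765360-84775444. C4b, at chr17:34728036-34743901, and Cfb, at chr17:34856374-34862514, lie in the same region of chromosome 17 as C2 and C4a. Cfb lies 87 bases from C2, and the table lists a microRNA gene inside C3 (Mir6978) and another inside Cfb (Mir6972) on the same strand. C4b and C4a are near copies, since 35.2% of the 50-base windows and 8.3% of the 150-base windows of the C4b transcript occur unchanged in C4a, so how reads were divided between them is uncertain.

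The promoter of C3 and those of 2 of the 3 C1q genes were among 32851 mouse promoters from RefSeq (GRCm38.p6, 250 bases before to 50 after the annotated start), which covers 3 of the 7 genes. They are shown because promoters of C1qa, C4b, Cfb and Serping1 were not in that set. Capitals mark letters found by a search on both strands for the PU.1 core GAGGAA, which 28.3% of all promoters hold, the C/EBP motif TTGCNNAA (10.8%), TATAAA (13.6%), the interferon-response core GAAANNGAA (8.6%) and the STAT motif TTCNNNGAA (8.3%). No listed motif overlapped another in these windows.
C1qb, chr4:136886151-136886450, minus strand, written 5′ to 3′: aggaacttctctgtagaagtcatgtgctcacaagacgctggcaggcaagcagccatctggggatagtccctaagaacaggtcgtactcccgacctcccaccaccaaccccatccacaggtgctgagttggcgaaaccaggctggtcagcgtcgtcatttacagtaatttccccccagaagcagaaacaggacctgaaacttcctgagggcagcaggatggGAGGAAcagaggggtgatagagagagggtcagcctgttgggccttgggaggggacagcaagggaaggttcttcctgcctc
C1qc, chr4:136892865-136893164, minus strand, written 5′ to 3′: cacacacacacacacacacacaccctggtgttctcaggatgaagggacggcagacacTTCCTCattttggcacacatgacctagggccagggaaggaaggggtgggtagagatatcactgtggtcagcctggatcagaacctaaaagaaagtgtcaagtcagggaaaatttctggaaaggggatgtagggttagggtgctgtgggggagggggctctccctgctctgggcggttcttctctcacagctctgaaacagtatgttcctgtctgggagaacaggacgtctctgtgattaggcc
C3, chr17:57228087-57228386, minus strand, written 5′ to 3′: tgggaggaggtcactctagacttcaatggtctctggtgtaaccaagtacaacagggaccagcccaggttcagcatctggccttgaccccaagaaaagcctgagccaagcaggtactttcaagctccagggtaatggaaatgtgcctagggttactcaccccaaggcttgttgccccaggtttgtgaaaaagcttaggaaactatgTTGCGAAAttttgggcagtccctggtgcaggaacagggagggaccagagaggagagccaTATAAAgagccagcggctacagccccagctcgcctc
The C1qb window held a PU.1 core at bases 221 to 226, counted from its 5′ end, and the C1qc window held the core on the other strand, read as TTCCTC, at bases 58 to 63. The C3 window held no PU.1 core, and had the C/EBP letters TTGCGAAA at bases 206 to 213 and TATAAA at bases 265 to 270. The C/EBP letters lay before the annotated start (-45 to -38) and the TATAAA after it (15 to 20). The interferon-response and STAT letters were in none of these 3 windows. These matches are letters and were not tested as binding sites.

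Between 16317239 and 18726963 reads were counted on genes in each library, and 17766 genes, including all 7 complement genes, passed the filter on low counts. NC A and anti-miR-124 B stood apart in ways that touch the results, and anti-miR-124 A stood apart in red cell and liver serum markers. Lens genes took 6.73% of all TPM (counts per gene length, scaled to the same sum in each library) in NC A and 0.0178% to 0.024% in the others. Because of this the median TPM ratio of all tested genes was 0.10 (log2) in pair A and 0.00 in pair B. With TMM scaling, which allows for such a shift, these medians were -0.01 and 0.00. The TPM ratios of pair A given below carry the shift. On the TMM scale the log2 ratios in pair A were -0.28 for C1qa, -0.13 for C1qb, 0.00 for C1qc and 0.19 for C3. They were -1.52 for C4b, 0.15 for Cfb and 0.06 for Serping1. In the anti-miR-124 library with number B (anti-miR-124 B), the summed TPM of 20 microglia markers was 652, against 214 in NC B, 249 in NC A and 246 in anti-miR-124 A. The summed TPM of 12 reactive gliosis markers was 1130 there and 545 to 752 in the others. In anti-miR-124 A, red cell and liver serum markers summed to 1410 TPM, against 369 to 676 in the others. A change in the number of cells of a type and a change in RNA per cell cannot be told apart in such bulk libraries.

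The comparison of the groups asks which complement transcripts differ after inhibition of miR-124-3p. All but Cfb of the 7 genes were 3.04-fold to 19.7-fold higher in TPM in anti-miR-124 B than in NC B, whereas in pair A the 7 ratios ran from 0.376-fold for C4b to 1.23-fold for C3. Over all 4 libraries the log2 fold changes ran from 0.22 for Cfb to 2.03 for C4b, with a median of 1.00, and none passed edgeR's quasi-likelihood test (adjusted p = 0.989 for each of the 7 genes, 2 libraries per group). In that test 0% of all tested genes passed, with 694 genes at an unadjusted p under 0.05. DESeq2 called 34 genes and none of these 7. Without anti-miR-124 B the median of the 7 log2 fold changes was 0.18 and C4b turned negative, so the size of the difference rests on that library. Without anti-miR-124 A, 6 of the 7 genes passed, all but Cfb, against 256 of 18809 genes tested (1.36%). When the filter on low counts was left out, 6 of the 7 passed against 379 of 31982 genes (1.19%). In that edgeR fit C4b had an adjusted p of 4.71e-14, although its groups overlapped and its pairs went in opposite directions. Calls from that fit are therefore not taken as evidence of a difference.

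**Figure D1:**
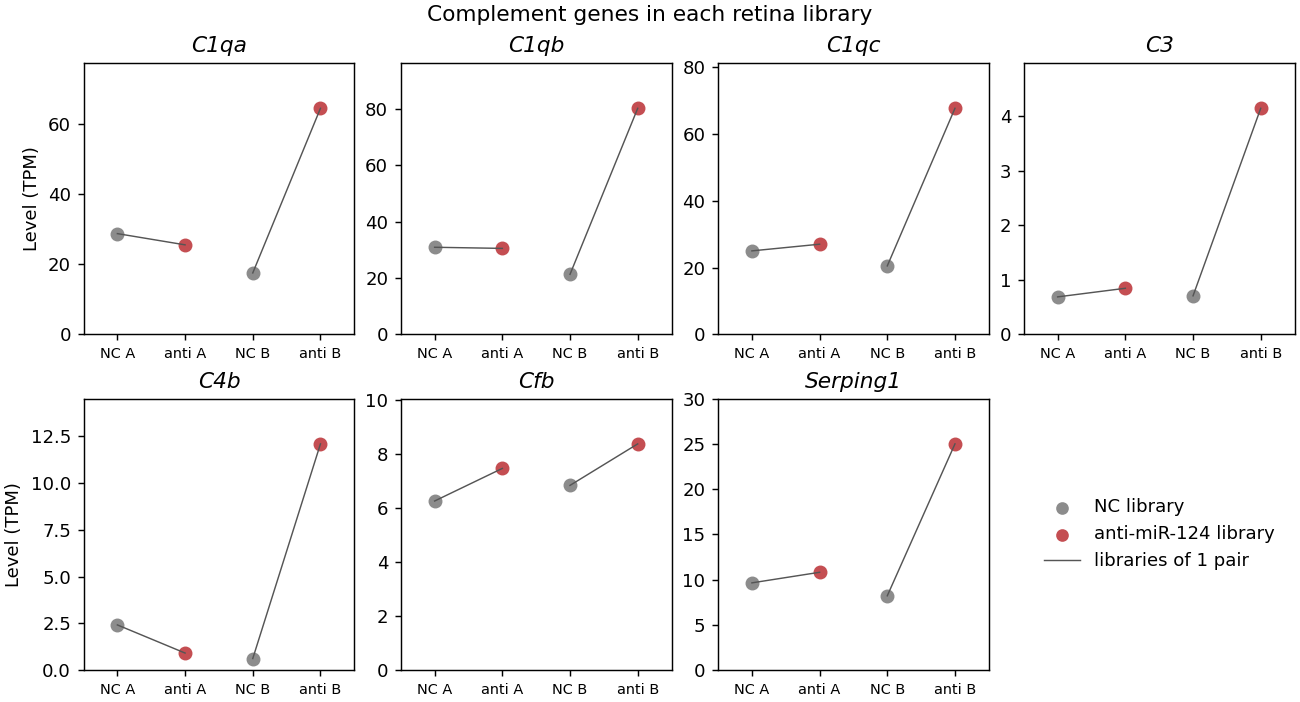
Level of each complement gene in TPM (vertical axes, each from 0) in the 4 libraries, with lines joining the NC (grey) and anti-miR-124 (red) library of a pair. Anti-miR-124 B is the highest point in all 7 panels, from 4.15 TPM for C3 to 80.2 TPM for C1qb, and Cfb is the gene with the flattest profile.

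In the NC libraries the C1q chains were the most abundant of the 7 transcripts per length, at 26.1 ± 6.76 TPM for C1qb, 23.1 ± 7.93 for C1qa and 22.8 ± 3.2 for C1qc (mean ± SD, n = 2). Serping1 followed at 8.92 ± 1.01 TPM and Cfb at 6.56 ± 0.415 TPM, and the values of these 2 genes did not overlap. C4b, at 1.51 ± 1.27 TPM, and C3, at 0.697 ± 0.0137 TPM, were lowest. The 3 C1q chains overlapped each other in level, as did C4b and C3. The order in anti-miR-124 B was different at the lower end, where C4b reached 12.1 TPM and Cfb 8.39 TPM.

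C1qa encodes the A chain of C1q. Its counts were 165 in NC A, 144 in anti-miR-124 A, 103 in NC B and 396 in anti-miR-124 B, or 28.7, 25.5, 17.5 and 64.4 TPM. Anti-miR-124 B was highest and NC B lowest, and the groups overlapped because anti-miR-124 A lay between the 2 NC libraries. The log2 TPM ratio was -0.17 in pair A (95% interval -0.51 to 0.16) and 1.88 in pair B (1.56 to 2.20). These intervals are exact binomial ones and cover counting error only.

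C1qb, the B chain, had 174 counts in NC A against 169 in anti-miR-124 A, and 123 in NC B against 484 in anti-miR-124 B. In TPM these were 30.9 and 30.5, then 21.3 and 80.2. Its groups also overlapped, with anti-miR-124 A just under NC A. The log2 TPM ratio was -0.02 in pair A (-0.33 to 0.30) and 1.91 in pair B (1.62 to 2.21).

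C1qc, the C chain, had 149 and 158 counts in pair A and 125 and 432 in pair B, NC first in each, or 25.0, 27.0, 20.5 and 67.7 TPM. Its log2 TPM ratio was 0.11 in pair A (-0.22 to 0.44) and 1.72 in pair B (1.43 to 2.02). Anti-miR-124 A and NC A were level on the TMM scale, at a CPM of 9.25 each, so that C1qc counts as not overlapping between groups under TMM but overlaps under upper-quartile scaling. For all 3 chains the interval in pair A included 0 and that in pair B did not.

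The chains kept similar proportions. C1qb was 1.07, 1.2, 1.22 and 1.25 times C1qa in TPM in NC A, anti-miR-124 A, NC B and anti-miR-124 B. C1qc was 0.871, 1.06, 1.17 and 1.05 times C1qa in the same order. Their summed level was 84.6 TPM in NC A, 82.9 in anti-miR-124 A, 59.4 in NC B and 212 in anti-miR-124 B. The sum was thus 0.98-fold in pair A and 3.58-fold in pair B. By edgeR the log2 fold change was 0.89 for C1qa (standard error 0.45), 1.02 for C1qb (0.44) and 1.00 for C1qc (0.41), and without anti-miR-124 B it was 0.09, 0.18 and 0.20. The difference between the anti-miR-124 libraries, 2.49-fold for C1qa, 2.59-fold for C1qb and 2.48-fold for C1qc (TMM scale), exceeded that between the NC libraries, at 1.80-fold, 1.59-fold and 1.34-fold.

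C3 is the central component, cleaved by the convertases of every pathway. It had few reads, with 19 in NC A, 23 in anti-miR-124 A, 20 in NC B and 123 in anti-miR-124 B, or 0.688, 0.846, 0.707 and 4.15 TPM. The NC libraries were nearly equal and anti-miR-124 B stood alone. The log2 TPM ratio was 0.30 in pair A (-0.64 to 1.26) and 2.56 in pair B (1.87 to 3.32), a 5.88-fold difference. The groups did not overlap, and the edgeR log2 fold change was 1.79 (standard error 0.71, unadjusted p = 0.0417, adjusted p = 0.989), or 0.24 without anti-miR-124 B.

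C4b encodes the complement C4 that the classical pathway cleaves before C3. It was the most variable of the 7 genes, with 73 counts in NC A, 27 in anti-miR-124 A, 19 in NC B and 392 in anti-miR-124 B, or 2.41, 0.904, 0.612 and 12.1 TPM. NC A was second highest, so the groups overlapped. In pair A C4b was lower after anti-miR-124, with a log2 TPM ratio of -1.41 (-2.11 to -0.76), and in pair B it was 19.7-fold higher, a log2 ratio of 4.30 (3.64 to 5.05). Both intervals excluded 0 on opposite sides. The NC libraries alone differed 4.31-fold and the anti-miR-124 libraries 13.1-fold (TMM scale). The log2 fold change was 2.03 with a standard error of 1.10, and -0.80 without anti-miR-124 B. The near copy C4a had 21, 22, 20 and 26 counts in the order used for C4b, so that the ratio of C4b to C4a in TPM was 3.26, 1.15, 0.89 and 14.1.

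**Figure D2:**
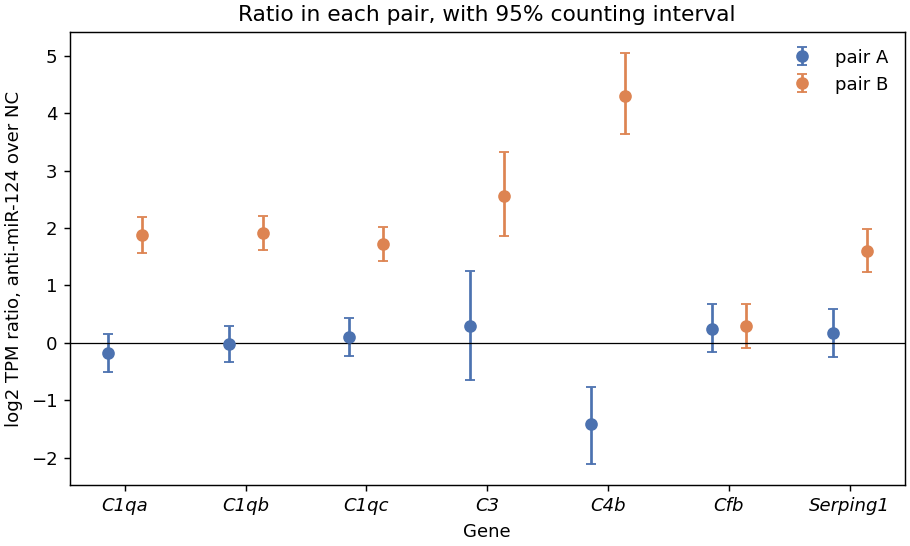
log2 TPM ratio of anti-miR-124 over NC for each gene (horizontal axis) in pair A (blue) and pair B (orange), where bars are 95% exact binomial intervals for counting error. The pair A interval of every gene except C4b includes 0, and in pair B that of Cfb alone does.

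Cfb encodes factor B, the protease of the alternative pathway. Its counts were 92 in NC A, 108 in anti-miR-124 A, 103 in NC B and 132 in anti-miR-124 B, or 6.27, 7.48, 6.85 and 8.39 TPM. Both anti-miR-124 libraries lay above both NC libraries by a small margin. The log2 TPM ratio was 0.25 in pair A (-0.16 to 0.67) and 0.29 in pair B (-0.09 to 0.68), and both intervals included 0. By edgeR the log2 fold change was 0.22 (standard error 0.19) and 0.15 without anti-miR-124 B. Cfb was the only one of the 7 genes whose ratio in pair B was under 2-fold.

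Serping1 encodes the C1 inhibitor, which inactivates C1r and C1s. It had 94 counts in NC A, 104 in anti-miR-124 A, 82 in NC B and 261 in anti-miR-124 B, or 9.63, 10.8, 8.20 and 25.0 TPM. The groups did not overlap, although the margin in pair A was 0.06 on the log2 TMM scale. Its log2 TPM ratio was 0.17 in pair A (-0.25 to 0.59) and 1.60 in pair B (1.24 to 1.98). The edgeR log2 fold change was 0.95 (standard error 0.39, unadjusted p = 0.0469, adjusted p = 0.989), and 0.24 without anti-miR-124 B.

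Read against all tested genes, the 7 complement genes were mostly set apart in pair B. A TMM ratio of at least 2-fold in pair B was found for 6 of 7, against 3.75% of all tested genes, and among 13542 genes with a mean of at least 50 counts C4b ranked 11, C1qb 85, C1qa 87, C1qc 113, Serping1 126 and Cfb 1399 by that ratio. The mean of C3 was 46.2 counts, below this limit. In pair A the same 6 genes ranked from 2618 for Cfb to 13476 for C4b. C1qc, C3, Cfb and Serping1 were higher in TPM after anti-miR-124 in each pair, 4 of 7 against 32.3% of all tested genes. By TMM the same 4 genes did not overlap between the groups, against 16.5% of all tested genes, or 3 of 7 with upper-quartile scaling. C1qc, C3 and Serping1, 3 of 7, had an unadjusted p under 0.05 and were higher, against 2.23% of all tested genes. With 7 genes, of which the C1q chains moved together, these counts are a description.

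**Figure D3:**
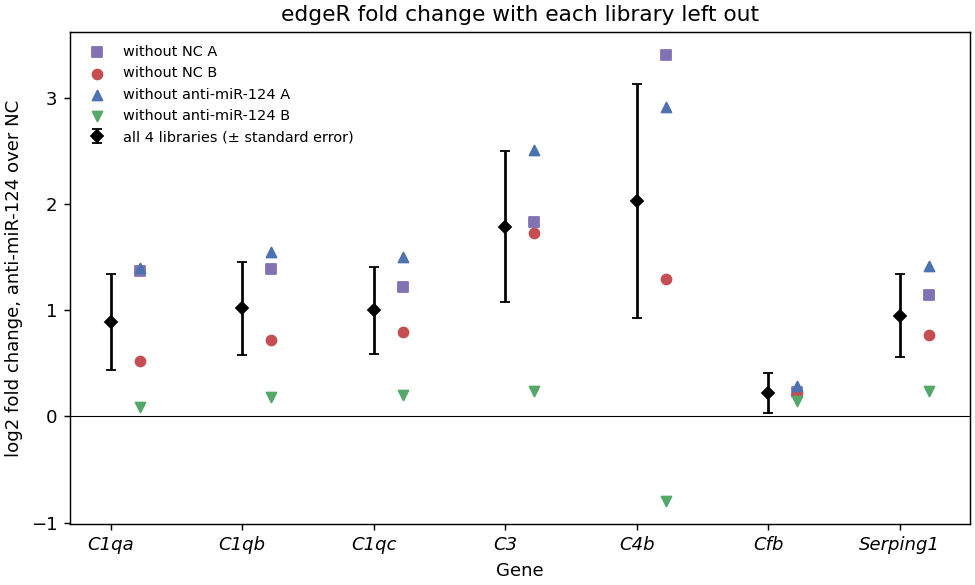
edgeR log2 fold change of anti-miR-124 over NC (vertical axis) for each gene from all 4 libraries (black, ± standard error) and with each library left out (coloured). Leaving out anti-miR-124 B (green) gives 0.09 for C1qa to 0.24 for C3 and Serping1, and -0.80 for C4b, while Cfb stays between 0.15 and 0.29 in every case.

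The wider complement list held 49 further genes, of which 29 were tested, 6 had no count in any library and 14 had counts but too few, at most 16 in a library. None passed the test, and the median log2 fold change was 0.07, against 1.00 for the 7 genes and 0.00 for all tested genes. By TMM, 11 of the 29 (37.9%) were higher in pair A and 19 (65.5%) in pair B, against 48.2% and 50.6% of all tested genes. There were 7 of 29 at least 2-fold higher in pair B, against 3.75% of all tested genes, and 8 of 29 did not overlap between the groups with anti-miR-124 above NC, against 16.5%.

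The receptors held 5 of those 7 genes. C3ar1, the receptor for the C3a fragment, had 64 counts in NC A, 71 in anti-miR-124 A, 48 in NC B and 353 in anti-miR-124 B (log2 fold change 1.80, standard error 0.66). C5ar1, the receptor for C5a, had 12, 11, 4 and 56 counts in that order. Itgam, Itgax and Itgb2 encode the chains of complement receptors 3 and 4, which bind cleaved C3 on phagocytes. Itgb2 had 20, 27, 26 and 301 counts (log2 fold change 2.71, standard error 0.97), Itgam 97, 62, 70 and 307, and Itgax 40, 20, 27 and 281. All 5 were highest in anti-miR-124 B. Without that library their log2 fold changes lay between -0.75 for Itgax and 0.44 for C5ar1. Other receptors and binding proteins had flatter profiles, with Lrp1 at 3382, 4417, 4333 and 5770 counts, a log2 fold change of 0.33 (standard error 0.11, unadjusted p = 0.0217), Cd93 at 0.12 and C1qbp at 0.11.

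The remaining 2 of the 7 were pattern recognition molecules. Colec12, a scavenger receptor of the collectin family, had 37 counts in NC A, 16 in anti-miR-124 A, 20 in NC B and 139 in anti-miR-124 B. Fcna, a ficolin, had 11, 0, 2 and 31. Both were second highest in NC A, as was C4b. Masp2, a lectin pathway protease, had 477, 429, 479 and 490 counts, a log2 fold change of -0.13. Of the classical pathway proteases, C1s1 had 11 to 23 counts and C2 had 13 to 29, with log2 fold changes of -0.61 (standard error 0.47) and -0.21 (0.46).

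Among the regulators, clusterin (Clu), which binds the terminal complex, had 1365, 849, 903 and 1463 counts in the order used above, a log2 TMM ratio of -0.77 in pair A and 0.63 in pair B. Membrane regulators went in both directions. The log2 fold changes were -0.60 for Cd55 (standard error 0.34), -0.24 for Cd46 (0.17) and -0.20 for Cd59a (0.29), which protect host cells. Cr1l was at 0.07 (0.15), Csmd1 at -0.05 (0.22), Csmd2 at 0.05 (0.11) and Csmd3 at 0.14 (0.14). Susd4 had 501, 630, 574 and 704 counts (log2 fold change 0.24, standard error 0.08, unadjusted p = 0.0176). The terminal component that passed the filter on low counts was C8g alone, at 23 to 44 counts. Susd4 and Csmd3 were among the regulators that did not overlap between the groups with anti-miR-124 above NC, as did 16.5% of all tested genes. Vtn, Cd55 and Cd46 did not overlap with anti-miR-124 below. The share of all tested genes below in this way is not given, so it is not read as a result about regulators.

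**Figure D4:**
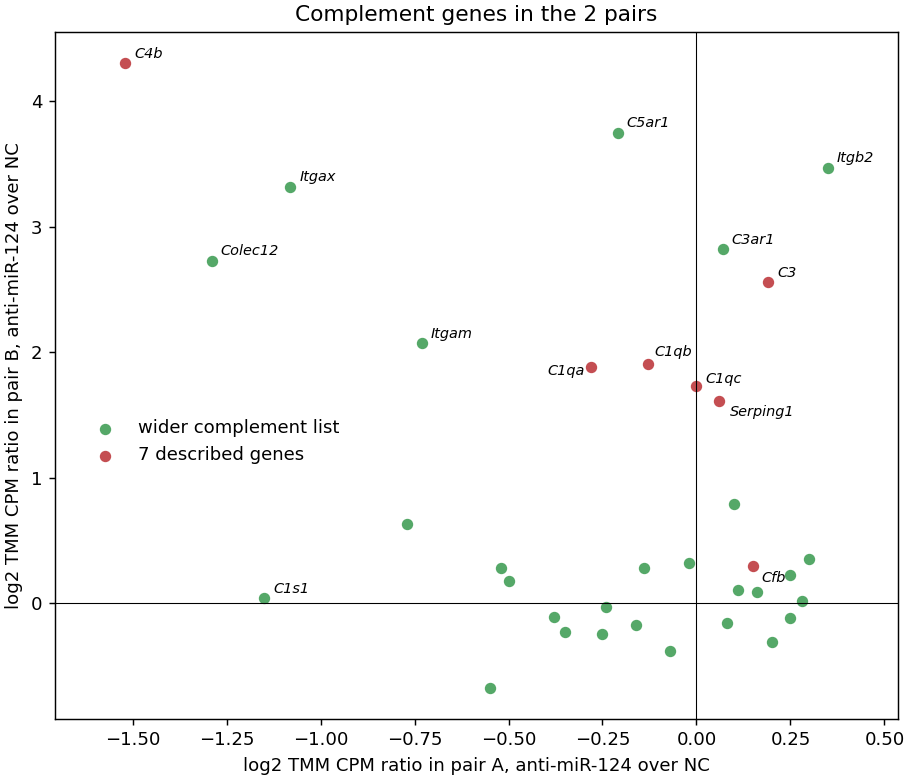
log2 TMM ratio of anti-miR-124 over NC in pair A (horizontal) and pair B (vertical) for the 7 described genes (red) and the tested genes of the wider list (green), where Fcna is not drawn because it had 0 counts in anti-miR-124 A. C4b, Itgax and Colec12 lie to the upper left, lower in pair A and higher in pair B, and most of the wider list lies near 0 in both.

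Microglia markers moved with the C1q chains over the libraries. All 20 markers were higher in pair B, by a median log2 TMM ratio of 1.63, and 9 of 20 were higher in pair A, with a median of -0.05. None of the 20 was at 0 in every library. Among them, the microglial receptor gene P2ry12 had 77, 89, 72 and 84 counts in NC A, anti-miR-124 A, NC B and anti-miR-124 B, and Tyrobp 56, 43, 39 and 178. The summed C1q level was 34.0%, 33.7%, 27.7% and 32.5% of the microglia sum in NC A, anti-miR-124 A, NC B and anti-miR-124 B. Serping1 was 3.87%, 4.40%, 3.83% and 3.82% of it. In pair B the levels behind these shares differed 3.58-fold for summed C1q, 3.04-fold for Serping1 and 3.05-fold for the microglia sum.

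C3 and C4b did not keep such a share. C3 was 0.276% of the microglia sum in NC A, 0.344% in anti-miR-124 A and 0.330% in NC B, and 0.637% in anti-miR-124 B. C4b was 0.966%, 0.368%, 0.286% and 1.85% in the order used above. Tested reactive gliosis markers were higher in pair B for 11 of 11 and in pair A for 0 of 11, with median log2 TMM ratios of 2.01 and -0.41. One of them, the glial filament gene Gfap, had 1496 counts in NC A, 720 in anti-miR-124 A, 631 in NC B and 3764 in anti-miR-124 B. NC A was above NC B for the gliosis markers by a median of 0.59 (log2), and C4b was above by 2.11. The part of these markers in the complement values was not tested.

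**Figure D5:**
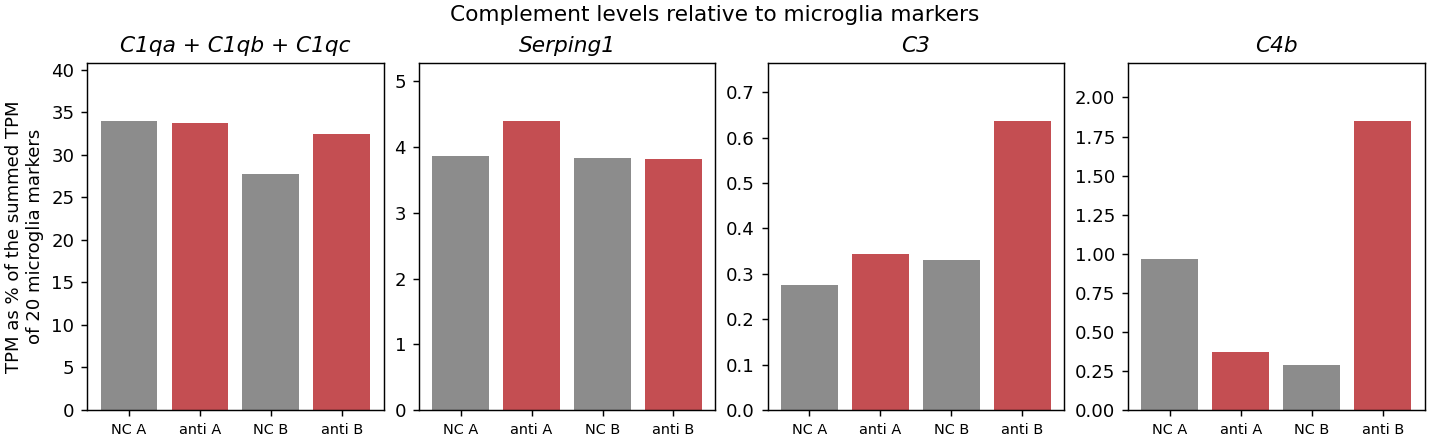
TPM of the summed C1q chains, Serping1, C3 and C4b as a percentage of the summed TPM of 20 microglia markers (bars from 0, NC grey, anti-miR-124 red). C1q stays between 27.7% and 34.0% and Serping1 between 3.82% and 4.40%, while C4b ranges from 0.286% to 1.85%.

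Interferon-stimulated genes were higher in both pairs. All 18 tested genes of that list were higher in each pair, with median log2 TMM ratios of 2.19 in pair A and 3.27 in pair B, none passing the test. Blood monocyte and neutrophil markers were near the limit of detection, with 0 of 8 tested, 3 of 8 without a count in any library, and sums of 1.87 to 3.30 TPM. One of them, Ccr2, had 0 counts in both pair A libraries, 2 in NC B and 25 in anti-miR-124 B. Elane and Mpo had no count. The rod markers summed to 9990 to 11800 TPM, and the endothelial markers to 303 to 334 TPM. Pigment epithelium markers summed to 422 to 476 TPM, with median log2 TMM ratios of 0.79 in pair A and 0.18 in pair B. For the red cell and liver serum markers these medians were 1.86 and -0.57. The part of either list in the complement values was not tested.

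The genes with the most similar profile to each complement gene were found among 13536 genes by the Euclidean distance of centred log2 TMM values over the 4 libraries. Nearest to the mean of the C1q chains was Hpgds, a prostaglandin D synthase, at a distance of 0.10, followed by Vsir (0.15), Cybrd1 (0.17), Cyth4 (0.19) and Pld4 (0.19). Its 56, 53, 38 and 138 counts in NC A, anti-miR-124 A, NC B and anti-miR-124 B track those of C1qa. Serping1 was nearest to Ctgf (0.09) and the Fc receptor gene Fcgr3 (0.10), and Fcgr3 was also nearest to C1qc (0.08).

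Among the genes nearest to C3 were Adam8 and Cd53 (0.24 each), Tnfrsf1b (0.30) and its receptor gene C3ar1 (0.36). C4b had no close neighbour, as the nearest were Cd36 (0.79), Mrc1 (0.87), Lyz2 (0.98), Itgax (1.01) and Capg (1.06). The macrophage lysozyme gene Lyz2 had 226, 136, 140 and 2646 counts in the order above, and the mannose receptor gene Mrc1 56, 20, 12 and 142. Both were second highest in NC A. Cfb was nearest to Dnaaf5 and Lonrf1 (0.01 each), a close match that flat profiles find easily. With 4 libraries these distances are a description.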

How the data were processed

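RNA-Seq counts of 4 retina libraries were analysed. The authors deposited raw read counts per gene, without normalization, with gene lengths. Their submission names HISAT2 and the mm9 build, but 99.8% of 36834 matched symbols overlapped their RefSeq position in GRCm38. The counting tool and strand setting are not given in the sources used here. The 4 RPKM columns of the table were not used. Columns were assigned to groups by the eye they name.

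TPM and log2 TPM ratios per pair were computed from counts and lengths as the study's methods describe. Groups were compared by edgeR's quasi-likelihood test (edgeR 4.0.16, R 4.3.3) with TMM scaling, filterByExpr and no covariate, two-sided, with Benjamini-Hochberg adjustment over 17766 genes and a threshold of 0.05. The script was tested on simulated data. DESeq2 1.42.0, other scalings and filters, a replicate block and leaving out each library were alternatives. Libraries were not duplicates (chi-square per degree of freedom at least 3.70 between any 2). Genes with few counts have wide counting intervals, and reads are not independent molecules.

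The 7 genes and all lists were chosen with earlier results of these data known. Named genes are the 7, tested genes of the wider list, markers, and the 5 nearest profiles per gene. Gfap, P2ry12, Tyrobp, Ccr2, Elane and Mpo were picked out after their values were seen. The protein and miR-124 sequences were not used here. The values of 2 genes are not reported here.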

Additional observations from a re-analysis of the deposited data

How the results depend on the processing

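Directions of the 7 log2 fold changes held under every scaling, filter, test and block tried, and the one reversal was C4b at -0.80 without anti-miR-124 B (3.41 without NC A). Calls did not hold. Without the filter on low counts 379 of 31982 genes passed, with 6 of the 7 complement genes and 7 genes of the wider list. Of the 49 genes on that list, 6 had no count in any library and were not tested in this fit. The DESeq2 Wald test called 34 genes and none of the 7. With each library left out in turn the genes called ran from 0 (without NC A) to 256 (without anti-miR-124 A), by way of 57 without NC B and 12 without anti-miR-124 B, those of the 7 from 0 to 6 and those of the wider list from 0 to 5, where the 6 and the 5 were reached without anti-miR-124 A. In these fits the lone library of a group is assumed to vary like the other group. The median of the 7 log2 fold changes was 1.37, 1.5, 0.77 and 0.18 without NC A, anti-miR-124 A, NC B and anti-miR-124 B.

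The replicate block left 0 genes called and 376 genes at an unadjusted p under 0.05, against 694, with a median of 0.88 for the 7. Over 13542 genes, libraries that share a number deviated from the group mean with a correlation of -0.20, so the numbers are not shown to pair libraries. Crossing the numbers, a choice made after seeing the data, called 160 of 17766 tested genes with that block. These held 4 of the 7 and 2 of the 29 tested genes of the wider list. Depth limits C3 most, at 19 to 23 counts in 3 libraries. The causes were not tested.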
